A study of Mus musculus with 2 samples.

Results

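Matrix metalloproteinases (MMPs) and their tissue inhibitors (TIMPs) were compared between wild-type fetal liver and fetal liver with a conditional knockout of Prox1. The set holds 6 enzymes (Mmp2, Mmp8, Mmp9, Mmp11, Mmp14 and Mmp15) and 3 inhibitors (Timp1, Timp2 and Timp3), 9 genes in all. Its members are the probe sets, the groups of oligonucleotides that report a transcript, which the platform annotation assigns to exactly 1 gene that is on this list. There were 20 such probe sets, of 34945 with exactly 1 gene, and they covered 8 of the 9 genes, of 18193 genes on the array. Mmp15 has no probe set of its own in the annotation used, so its expression was not analysed here.

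RNA was taken from liver of embryos at E14.5, on 1 array for a wild-type sample and 1 array for a Prox1 f/f;Foxa3Cre sample, called the knockout here, both of strain NMRI/C57Bl6. In the knockout a Cre recombinase under Foxa3, a gene of gut and liver endoderm, acts on a floxed Prox1, the gene of a homeodomain transcription factor of liver progenitors. Mesenchymal and blood cells do not arise from endoderm. How many embryos or litters stand behind either RNA is not in the labels, nor whether the wild type carried a floxed allele or Cre. With 1 array per genotype there is no replicate, no error between samples and no test, so each difference below is between these 2 arrays.

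MMPs are zinc-dependent proteases made as inactive proenzymes that cut collagens, laminins, fibronectin and other proteins outside the cell. TIMPs block them by binding the active site, and they also take part in activation: Timp2 links proMmp2 to Mmp14 at the cell membrane, where Mmp14 cuts the proenzyme. In liver the gelatinase Mmp2, the membrane enzyme Mmp14 and the TIMPs are known as products of stellate cells and other mesenchyme, while Mmp8 and Mmp9 are stored in the granules of neutrophils.

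The values are MAS5 signals on a linear scale, and the 2% trimmed mean was 500 on both arrays. A signal of 112.6, the higher of the arrays' medians (101.1 and 112.6), was taken as a floor, and lower signals were raised to it before log2. A gene is measured if its brightest probe set lies above the floor on at least 1 array. Where a gene lay on the floor in 1 of the samples, its fold is a lower limit, written "at least". Pairs of signals are given with wild type first. Prox1 read lower in the knockout on each of its 3 probe sets (from 340.3 to 221.8, from 205.9 to 111.8 and from 175.4 to 66.7), although the labels do not state if they lie in the deleted part. Markers of liver were bright on both arrays: Alb (albumin) gave 32396 and 33186, and Slc4a1, the red cell anion exchanger, 20063 and 22823. Hba-a1, a globin gene, was dim on its brightest own probe set, which stayed under the floor at 60.5 and 36.5.

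The MMPs and TIMPs measured on both arrays read higher in the knockout on their brightest probe sets, most by less than 2-fold. Of 7 measured members, Timp1 and Mmp2 were at least 2-fold higher (2 genes) and 0 were lower by that much. Over all 11397 measured genes, the background was 3.27% higher and 2.13% lower by 2-fold or more. Mmp9 was above the floor in the knockout only, so its direction was set by the floor. The 6 members measured on both arrays all had a log2 difference (knockout minus wild type) above 0, as had 52.1% of 10221 genes measured on both. The direction of these 6 was the same under quantile normalization, lowess correction and scaling to equal medians, but that of Mmp14 turned with the choice of probe set. Their median log2 difference was 0.61, beside 0.01 over the genes measured on both arrays, and with Mmp9 at its bound it was 0.46, beside 0.03 over all measured genes. The members that were measured are mostly dim. Among genes with a mean signal below 250, 5.41% were higher and 2.29% lower by 2-fold or more, and 61.2% of those measured on both arrays lay above 0. Between 250 and 1000 these shares were 3.93%, 2.77% and 55%.

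**Figure D1:**
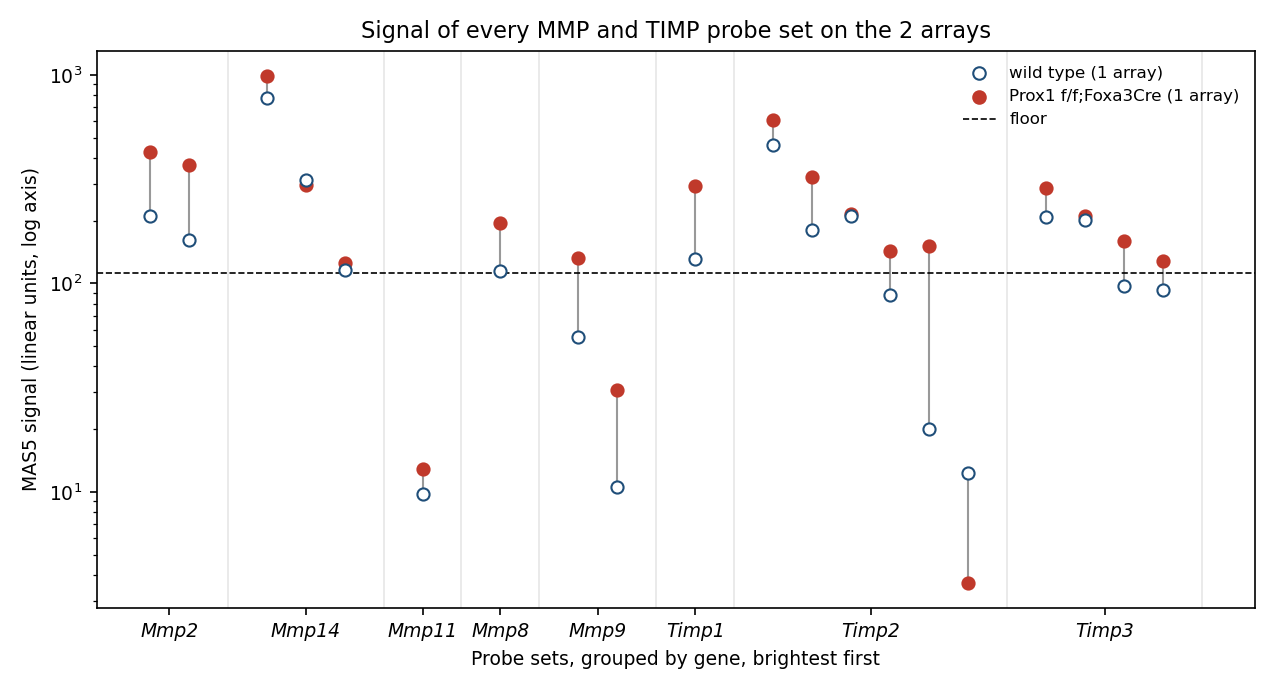
MAS5 signal (log axis) of each of the 20 probe sets, grouped by gene along the horizontal axis with the brightest first; open circles are the wild-type array, filled circles the knockout array, and the dashed line is the floor of 112.6. The knockout value lies above the wild-type value for 18 probe sets and below it for 2, the middle Mmp14 probe set and the dimmest Timp2 probe set.

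At the level of probe sets, 17 of 20 were above the floor on at least 1 array. Of these, 12 were above it in both samples, and 5 passed it in the knockout alone, while 0 passed it in wild type alone. The floor is the median of the knockout array, and over all 20409 measured probe sets of 1 gene 8.13% passed it in the knockout alone, beside 4.21% in wild type alone. The 5 could read in no other direction, so the direction is counted over the other 12, of which 11 read higher in the knockout and 1 lower. Over all 17891 probe sets above the floor on both arrays, 51% read higher. Of the 17, 3 were higher by 2-fold or more, beside 2.69% of all measured probe sets. How far probe sets of the same gene disagree gives a measure of scatter within these 2 arrays, and it holds no error between samples. For this, the 2 brightest probe sets of a gene above the floor on both arrays were taken. Over 2049 genes with both below a mean signal of 1000, the log2 differences of that pair lay a median of 0.27 apart. At the 95th percentile they lay 0.88 apart.

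**Figure D2:**
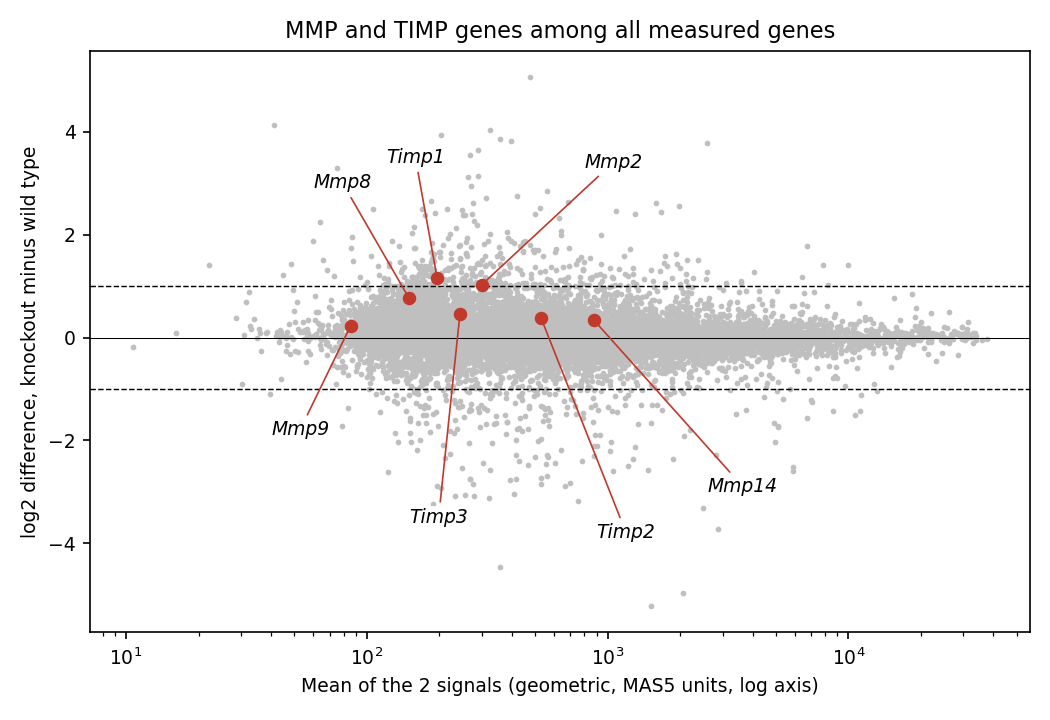
Log2 difference (knockout minus wild type) against the geometric mean of the 2 signals (log axis) for 11397 measured genes, each by its brightest probe set; grey points are other genes, red points the 7 measured members, and dashed lines mark 2-fold. Timp1 and Mmp2 lie above the upper 2-fold line, and the other 5 members lie between 0 and that line, with Mmp9 shown at its bound.

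Mmp2, or gelatinase A, cuts denatured collagen and the collagen of basement membranes. Its brightest probe set, designed to match several transcripts of the gene, went from 210.2 in wild type to 428.2 in the knockout, 2.04-fold higher. The other probe set read 162.2 and 371.1, 2.29-fold higher. Both thus read low on the wild-type array and high on the other, and their log2 differences (1.03 and 1.19) lay 0.17 apart, closer than the median pair. The brightest probe set lies just past the 2-fold mark, and rescaling put it below: its log2 difference was 0.95 under quantile normalization, 0.97 under lowess correction and 0.87 with equal medians.

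Mmp14, or MT1-MMP, is the membrane-bound enzyme that cuts fibrillar collagen and activates proMmp2. Its brightest probe set was the brightest of all the members' probe sets in both samples, going from 777.5 to 985.5, a log2 difference of 0.34. The next read 312.1 and 296.7, a log2 difference of -0.07, and the dimmest, near the floor, 116.2 and 125.2, a log2 difference of 0.11. The 3 probe sets thus did not share a direction, and they spanned 0.42 on the log2 scale. Mmp11, or stromelysin-3, known from stroma next to epithelium, read 9.73 and 12.9, below the floor on both arrays, so no difference is given for it.

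The neutrophil enzymes were dim. Mmp8, neutrophil collagenase, has 1 probe set, which read 115.1 in wild type, just above the floor, and 195.1 in the knockout, 1.70-fold higher with a log2 difference of 0.76. A floor at the 60th percentile left a bound of 0.04 on the log2 scale. Mmp9, or gelatinase B, read 55.6 in wild type, below the floor, and 132.0 in the knockout, so it was at least 1.17-fold higher. Its bound follows the floor. With the floor at the 30th percentile, where both readings count as measured, the log2 difference of Mmp9 was 1.25. The other Mmp9 probe set stayed under the floor in both samples, at 10.5 and 30.8.

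The 3 TIMPs read higher in the knockout on their brightest probe sets, by unequal amounts. Timp1, an inhibitor that is readily induced in many tissues and that binds proMmp9, has 1 probe set. Its signal was 130.6 for wild type against 293.1 for the knockout, 2.24-fold higher. The log2 difference of Timp1 was 1.17, the highest of the 7 members, and it stayed above 1 under each rescaling (1.01 to 1.10). With the floor at the 60th percentile, the wild-type reading of Timp1 lies below it and only a bound of 0.62 is left. No other probe set of the gene was there to set beside it.

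Timp1 lies on the X chromosome, and sex-linked genes separated the arrays. Xist, the RNA of the inactive X chromosome, went from 11467 in wild type to 365.7, and the Y-linked Eif2s3y read 0.87 and 1972. Across 360 other X-linked measured genes the median log2 difference was 0.07, with 14 genes (3.89%) higher and 4 lower by 2-fold or more. The median was 0.03 over 10996 autosomal genes, with 3.24% at least 2-fold higher. These sex-linked readings and genotype separate the same 2 arrays, so for no gene described here can sex and genotype be told apart. The part of this difference between the arrays in the reading of Timp1, of the other members or of the lists was not tested.

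Timp2, the inhibitor that carries proMmp2 to Mmp14, has 6 probe sets. The brightest read 462.9 and 603.8 in wild type and knockout, 1.30-fold higher. A probe set whose name marks probes shared with other transcripts read 181.1 and 325.2, 1.80-fold higher, while another one designed from the same sequence record read 209.8 and 213.9, a log2 difference of 0.03. On the log2 scale these 3 spanned 0.82, a little under the 95th percentile given above for a pair of probe sets. Another pair was above the floor in the knockout only, at 87.6 and 142.8 and at 20.0 and 150.8, which gives bounds of 1.27-fold and 1.34-fold. The last read 12.4 and 3.68, below the floor on both arrays.

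Timp3, the inhibitor that binds to the matrix and also blocks ADAM17 and the ADAMTS enzymes, has 4 probe sets. The brightest read 207.7 and 285.4, 1.37-fold higher, and the next 201.0 and 209.3, 1.04-fold higher. The remaining pair was above the floor in the knockout only, at 96.6 and 159.4 and at 93.0 and 128.4. Every Timp3 probe set thus had the higher reading in the knockout, by at most 0.46 on the log2 scale where both readings were measured. Timp1 lies within Syn1 and Timp3 within Syn3, synapsin genes of neurons. Syn1 read 68.5 and 10.2, under the floor, while the brightest Syn3 probe set read 78.7 and 118.8, the latter just above the floor.

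The order of the log2 differences over the brightest probe sets was Timp1 (1.17), Mmp2 (1.03), Mmp8 (0.76), Timp3 (0.46), Timp2 (0.38) and Mmp14 (0.34), with Mmp9 known only as a bound (0.23). Even the highest and the lowest of the 6 measured on both arrays differ by less than 0.88. That is the 95th percentile of the gap between probe sets of the same gene, so no part of this order is settled by these arrays.

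Promoter sequences of the 3 inhibitors are shown because these related genes read unequally on their brightest probe sets, with Timp1 the highest. That order is not settled by these arrays. The promoter of Mmp8 is shown because its reading was next after Timp1 and Mmp2. The sequences come from RefSeq (GRCm38.p6) and run 5′ to 3′ on the gene's strand from 250 bases before the start site to 50 after it. RefSeq promoters were matched for 7 of the 9 listed genes, and those of Mmp2 and Mmp9 were not matched. Capitals mark matches, on either strand, to GGGCGG (the GC box of SP and KLF factors) or TATAAA (the letters of the TATA box).
Timp1, chrX:20869916-20870215, plus strand: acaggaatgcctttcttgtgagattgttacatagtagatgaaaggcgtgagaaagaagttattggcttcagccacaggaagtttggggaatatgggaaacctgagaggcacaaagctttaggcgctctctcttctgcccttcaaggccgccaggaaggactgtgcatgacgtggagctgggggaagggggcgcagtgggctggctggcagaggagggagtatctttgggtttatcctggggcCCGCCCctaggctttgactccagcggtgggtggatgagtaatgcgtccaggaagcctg
Timp2, chr11:118355362-118355661, minus strand: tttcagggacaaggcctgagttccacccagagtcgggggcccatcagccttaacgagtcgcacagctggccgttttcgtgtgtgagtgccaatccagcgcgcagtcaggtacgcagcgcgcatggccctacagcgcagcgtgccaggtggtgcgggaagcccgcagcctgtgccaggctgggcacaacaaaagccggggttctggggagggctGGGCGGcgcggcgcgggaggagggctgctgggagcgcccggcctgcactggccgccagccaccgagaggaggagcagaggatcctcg
Timp3, chr10:86300162-86300461, plus strand: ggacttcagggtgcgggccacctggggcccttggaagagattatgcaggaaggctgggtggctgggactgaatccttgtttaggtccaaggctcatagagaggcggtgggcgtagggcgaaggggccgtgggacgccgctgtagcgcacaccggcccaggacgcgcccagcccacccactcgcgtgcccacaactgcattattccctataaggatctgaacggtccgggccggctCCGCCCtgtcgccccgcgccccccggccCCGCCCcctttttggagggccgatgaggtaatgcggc
Mmp8, chr9:7558179-7558478, plus strand: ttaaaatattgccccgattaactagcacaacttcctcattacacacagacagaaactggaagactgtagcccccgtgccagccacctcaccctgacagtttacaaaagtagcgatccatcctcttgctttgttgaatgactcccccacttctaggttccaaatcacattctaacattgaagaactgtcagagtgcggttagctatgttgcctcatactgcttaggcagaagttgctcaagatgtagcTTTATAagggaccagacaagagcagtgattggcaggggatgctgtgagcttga

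GGGCGG was found in 6 of the 7 member promoters, all but that of Mmp8, and in 35.7% of 32851 RefSeq promoters of the same length. TATAAA was found in 1, that of Mmp8, beside 13.6% of all. This match lies on the opposite strand and begins at base -3, next to the start site. TGANTCA, the site of AP-1 factors, was found in 0 of 7, beside 7.81% of all. The promoters of Timp2 and Timp3 held 25 and 24 CpG dinucleotides and were 68.7% and 67.0% G and C. That of Timp1 held 8 and was 55.0% G and C, and that of Mmp8 held 4 and was 46.0%. The medians over all promoters were 7 CpG dinucleotides and 52.7% G and C. These are descriptions of the sequence, and no binding was measured here.

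The other enzymes of the family were mostly not measured. Of 18 further genes (17 MMPs and Timp4), 14 were covered by an own probe set and 2 were measured. Mmp19, an MMP of vessels and blood cells, read lower in the knockout on both probe sets, from 242.0 to 160.8 and from 184.8 to 123.8, with log2 differences of -0.59 and -0.58. Mmp23 read 49.9 and 154.0, at least 1.37-fold higher, and its other probe set 12.5 and 130.2. Timp4, the remaining inhibitor, stayed under the floor, at 25.7 and 18.6 on its brightest probe set, as were the stromelysins Mmp3 and Mmp10 and the collagenase Mmp13.

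Genes that activate or restrain MMPs went in both directions. Of 22 measured genes of this kind, 4 were at least 2-fold lower and 0 at least 2-fold higher, and 12 lay above 0 and 10 below. The floor fixed the direction of 1 gene that passed it in the knockout alone and of 3 in wild type alone. Of the 18 measured on both arrays, 11 lay above 0. The median log2 difference of the 22 genes, 0.07, turned to -0.08 with equal medians. In the higher direction, 1 gene passed the mark under quantile normalization and under lowess correction. The lowest were products of hepatocytes. Pzp, an alpha-2-macroglobulin relative that traps proteases, went from 7880 to 789.6, 9.98-fold lower. Klkb1, plasma prekallikrein, was at least 7.35-fold lower, Serpinf2, the plasmin inhibitor, 2.37-fold lower, and Hpn, the membrane protease hepsin, 2.25-fold lower. At the upper end were serine proteases of neutrophil granules. Elane, neutrophil elastase, read 1526 and 3045 (a log2 difference of 0.997) and Ctsg, cathepsin G, 1454 and 2819 (1.94-fold). The following genes were chosen after their values were seen. Reck, a membrane-anchored MMP inhibitor, read 311.2 and 573.3 (1.84-fold higher). Lcn2, whose human protein binds MMP9 in neutrophils, read 927.3 and 1498 (1.62-fold higher). Furin, a protease that activates Mmp14, read 409.5 and 446.7, and Bsg, an inducer of MMPs, 12677 and 13312. Plg, plasminogen, went the other way, from 11318 to 6594 (1.72-fold lower), and Pcsk6 was at least 1.52-fold lower.

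The ADAM and ADAMTS enzymes are relatives of the MMPs, and Timp3 blocks several of them. Of 14 measured, 1 was higher and 0 lower by 2-fold or more, and 13 lay above 0, with a median of 0.43. Of the 10 measured on both arrays, 9 lay above 0. Each of the 3 rescalings put 1 past the mark in the lower direction. Adamts12 was at least 2.78-fold higher, from 109.2 to 312.9, though its other probe set was below the floor on both arrays. Adamts9, a protease of versican and aggrecan, was 1.98-fold higher, from 339.1 to 671.8, with another probe set at 2.01-fold. Adam12 read 1.55-fold higher on its brightest probe set and 2.33-fold on the other. Adamts5 and Adamts1, which also cut versican, were 1.51-fold and 1.47-fold higher, Adamts5 with another measured probe set nearly equal on the arrays (114.3 and 114.8). Adam15 was 1.95-fold lower on its brightest probe set, which shares probes with other sequences, from 378.8 to 194.1. It read 176.9 on both arrays on another.

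Genes of matrix proteins, many of them MMP substrates, also read higher in the knockout. Of 32 measured matrix genes, 12 were higher and 0 lower by 2-fold or more and 29 lay above 0 (26 of the 29 measured on both arrays), with a median log2 difference of 0.67. Lamb1, a laminin beta chain, read 5.76-fold higher on the brightest probe set, which shares probes with other transcripts, and 2.46-fold on the next, with a bound of 1.91-fold on another. The proteoglycan Vcan was 4.06-fold higher and the fibril collagen Col1a1 3.96-fold, from 322.7 to 1278, with its other probe set at 3.91-fold. Col6a1 and Col6a2, chains of the beaded collagen, were 3.83-fold and 3.33-fold higher, with 1.68-fold on the other Col6a2 probe set, and Fbln1, a fibulin, was 3.43-fold higher. The other measured probe sets of Vcan and Fbln1 gave bounds of 1.67-fold for Vcan, and of 1.23-fold and 1.94-fold for Fbln1. Below 0 were Vtn (vitronectin, -0.78), Col18a1 (-0.72) and Fbln5 (-0.48) on the log2 scale.

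**Figure D3:**
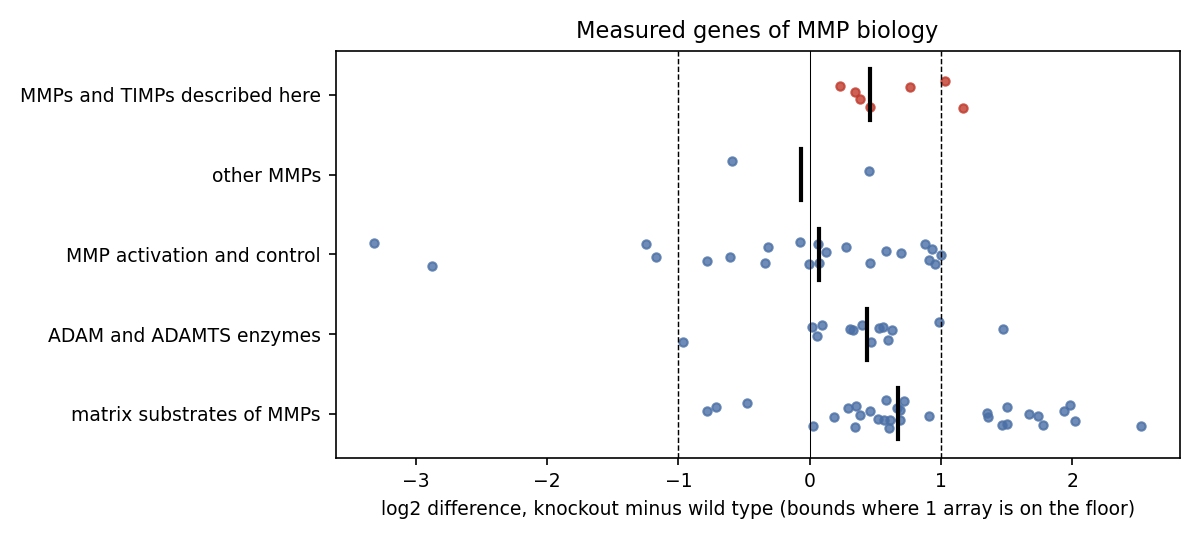
Log2 difference (knockout minus wild type) of each measured gene in the members and in the lists of MMP biology; each point is a gene by its brightest probe set, black bars are medians, dashed lines mark 2-fold, and a gene on the floor on 1 array is shown at its bound. The median was 0.46 for the members, 0.67 for the matrix substrates, 0.43 for ADAM and ADAMTS enzymes, 0.07 for activation and control and -0.07 for the 2 other measured MMPs.

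Markers of the cell types known to make these enzymes also read higher in the knockout. In RNA from a whole organ, more cells of a type and more RNA per cell cannot be told apart. Of 25 mesenchymal and stellate genes, 21 were measured, 9 were higher by 2-fold or more and 0 lower, and 19 lay above 0 (17 of the 18 measured on both arrays), with a median log2 difference of 0.92. Their summed signal was 24250 in wild type and 39859 in the knockout, 1.64-fold higher. Without Dlk1, a bright gene that hepatoblasts express too, the sum went from 13889 to 26769, 1.93-fold higher, a variant chosen after the values were seen. The cadherin Cdh11 went from 271.0 to 879.7, the transcription factor Hand2 from 285.9 to 926.2, the receptor Pdgfrb from 247.2 to 796.9 and the transcription factor Tcf21 from 427.5 to 1127. Des (desmin), which marks stellate cells, read 153.6 and 151.1, and Nes (nestin) read 176.0 and 100.3, at least 1.56-fold lower. Dpt, Mfap4, Twist1 and Twist2 were below the floor on both arrays. Under scaling to equal medians 19 of the 21 mesenchymal and stellate genes lay above 0 and 6 were at least 2-fold higher. The part of mesenchymal RNA in the Mmp2 and Timp readings was not tested.

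Of 24 granulocyte genes, 17 were measured, all 17 lay above 0 and 7 passed 2-fold, and their median was 0.90. Of these, 14 were measured on both arrays, and Epx, Cd177 and Gfi1 (3 genes) passed the floor in the knockout alone, which fixes their direction. Under scaling to equal medians 17 of 18 measured lay above 0 and 5 were at least 2-fold higher. Their summed signal went from 34195 to 71527, 2.09-fold higher. The brightest genes, S100a8 (from 13628 to 24663.5), S100a9 and Mpo, make up most of this sum. Fcnb, a ficolin of immature neutrophils, went from 254.4 to 886.6, Chil3 from 117.4 to 346.5, the calcium-binding S100a9 from 6118 to 16234, and Ms4a3, a gene of granulocyte progenitors, from 700.04 to 1771. Ngp, Camp and Ltf, genes of later neutrophil granules, were picked later and not by the size of their difference. Ngp went from 2619 to 6323, Camp from 1530 to 3395 and Ltf from 847.7 to 1519.98. Mpo, from 5782 to 11742.5, had a larger log2 difference (1.02) than Ltf (0.84). As all 17 measured genes lay above 0, these readings do not set genes of later granules apart. Cxcr2, Itgam, Itgb2l and Padi4 stayed under the floor. The part of granulocyte RNA in the Mmp8 and Mmp9 readings was not tested.

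Other cells that express MMPs or TIMPs had medians below that of the members in the values as deposited, but not under each rescaling. Under quantile normalization the members' median was 0.36. It was then 0.38 for macrophage, 0.38 for mesothelial, 0.37 for megakaryocyte and 0.30 for endothelial genes. As deposited, the members' median was 0.46 with Mmp9 at its bound and 0.61 over the 6 measured on both arrays. The median log2 difference was 0.41 for 18 macrophage genes (Marco 1.44, Aif1 0.97, Msr1 0.85, Fcer1g 0.82), with 1 at least 2-fold higher. Of these macrophage genes 15 lay above 0 and 3 below, Timd4 (-0.75, from 583.7 to 347.3), Mrc1 (-0.28) and Cd68 (-0.13). The median was 0.38 for 20 endothelial genes (Sox18 0.69, Ramp2 0.60, Plvap 0.57, Pecam1 0.55), with 0 past 2-fold, and 0.37 for 12 megakaryocyte genes, with 1 at least 2-fold higher. Platelets and their precursors also carry TIMPs. For 8 mesothelial genes it was 0.41. The hepatoblast markers had a median of -0.05 over 12 genes, with 2 at least 2-fold lower, Ahsg (fetuin-A, -3.73) and Apoh (-2.60), and 10 erythroid genes had a median of -0.10. Dlk1 stands in the mesenchymal and hepatoblast lists, Krt8 in the mesothelial and hepatoblast lists, and Thbs1 in the megakaryocyte list and that of MMP control.

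**Figure D4:**
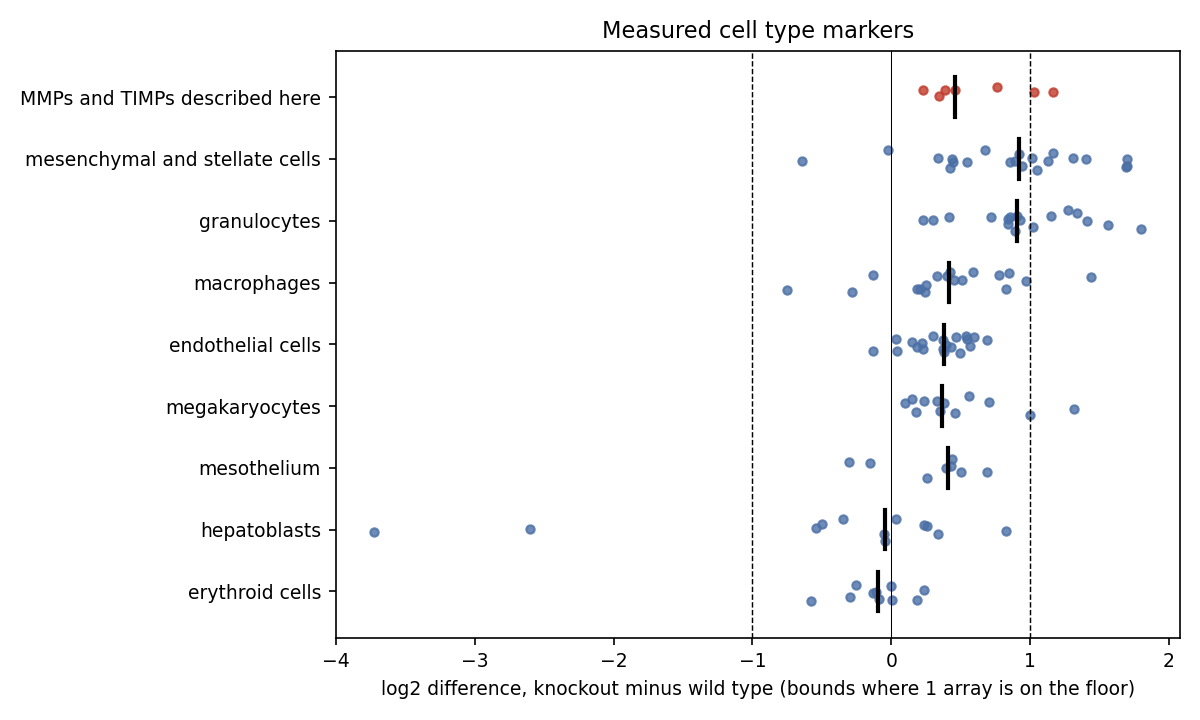
Log2 difference (knockout minus wild type) of each measured gene in the members and in 8 lists of cell type markers; each point is a gene by its brightest probe set, black bars are medians, dashed lines mark 2-fold, and a gene on the floor on 1 array is shown at its bound. Mesenchymal and granulocyte markers have the highest medians, at 0.92 and 0.90, beside 0.46 for the members. The medians of the hepatoblast and erythroid lists are -0.05 and -0.10, with the hepatoblast genes Ahsg and Apoh far to the left at -3.73 and -2.60.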

How the data were processed

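Total RNA was isolated with Trizol and labelled with biotin by the Affymetrix one-cycle assay, per the labels' protocols. Per the submitters' processing notes, the authors deposited MAS5 intensity values, of a version not given in the sources used here. MAS5 subtracts mismatch from perfect-match probes and scales each array, so dim probe sets scatter widely. The equal trimmed means were found from the values, which were used as deposited. Of 45101 probe sets, 64 controls were left out. Genes were named from the platform annotation at GEO: 34945 probe sets had 1 gene symbol, 932 several and 9160 none. For each gene the brightest probe set by mean log2 signal was used.

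Precision is limited by the number of arrays. With 1 array per genotype no test was run, and genes were counted at 2-fold. The members and gene lists were chosen with earlier results of these data known. Named genes were all members, up to 6 genes of each list on MMP biology and up to 4 of each cell type list with the largest absolute differences, and Prox1, Xist and Eif2s3y; other genes are given as background to these or marked as picked later. Alternatives were the floor, the scaling, the choice of probe set and the fold mark. The counting was tested on simulated data with planted differences larger than that of any member. Their recovery was checked only for genes above the floor on both arrays. The test thus does not cover differences as small as the members' or genes on the floor. Python 3.11.15, numpy 2.4.6, pandas 2.3.3, statsmodels 0.14.6 (lowess with a span of 0.3) and matplotlib 3.10.9 were used.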

Additional observations from a re-analysis of the deposited data

How the results depend on the processing

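The number of members at least 2-fold higher, 2 as reported, was 1 with the floor at the 60th percentile, under quantile normalization, under lowess correction and with equal medians, 0 at a 3-fold mark, and 3 at a 30th percentile floor, without a floor or at a 1.5-fold mark. The number at least 2-fold lower was 0 in every alternative run. The members' median log2 difference, 0.46 as reported, was 0.76 at a 30th percentile floor, 0.61 without floor or filter, 0.30 with equal medians, 0.23 when each gene took its smallest difference and 0.76 with the next-brightest probe set, an alternative chosen after seeing the data. Equal medians moved the median of all genes from 0.03 to -0.12, and the members' median stayed 0.42 above it. Mmp14 turned to -0.073 when it took its smallest difference or its next-brightest probe set. Over all genes, 373 higher and 243 lower became 271 and 317 with equal medians, 789 and 414 at the 30th percentile floor, 2362 and 1470 without one, 1125 and 594 at 1.5-fold and 99 and 102 at 3-fold. Signal over background limits Mmp9, Mmp11 and Mmp8 most. No paired analysis was possible because each genotype has 1 array.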

Other observations

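Other enzymes that build or modify the matrix, a list added after the files were seen, had a median log2 difference of 0.44 over 22 measured genes. Of these, 4 were at least 2-fold higher (3.27% over all measured genes), 0 at least 2-fold lower and 16 above 0. The direction of 3 was fixed, as they passed the floor in the knockout alone. Of the 19 measured on both arrays, 13 lay above 0, beside 52.1% of all genes measured on both. Loxl1, which cross-links elastin, was at least 3.17-fold higher, from 110.3 in wild type to 357.3 in the knockout, though its other probe set stayed under the floor. Sulf2, a sulfatase of heparan sulfate, was higher by 2.95-fold on its brightest probe set, which shares probes with other sequences, and 1.39-fold on the next. Serpinh1, the collagen chaperone, went from 1665 to 4024 (2.42-fold higher), and Pcolce, which speeds the trimming of procollagen, from 828.2 to 1939 (2.34-fold, with 2.33-fold on its other probe set). The collagen-cutting cathepsin Ctsk stayed under the floor, at 5.35 and 60.5. Both Mmp19 probe sets, measured on both arrays, read lower in the knockout, as did 1 of the members' 12 such probe sets.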
